A study of Mus musculus with 3 samples.

Results

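The globins and red cell genes described here are the adult alpha globins Hba-a1 and Hba-a2, the adult beta globins Hbb-bs and Hbb-bt, and 4 further genes of the red cell, Alas2, Slc4a1, Ahsp and Bpgm. They were chosen by name because their counts differed between lungs and could serve as a measure of blood content, so their spread between lungs is given as a description, without a test. Of the 8 genes, 7 were matched by symbol in a table of 53342 genes, and all 7 passed the filter on low counts. Ahsp, which encodes a chaperone of free alpha globin, was not matched and was not analysed here.

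The counts are from bulk RNA sequencing of 1 lung library from each of 3 male C57Bl/6 mice, called mouse 4, 5 and 6 after the last digit of each label. To produce granulomas, microparticles of Mycobacterium abscessus were placed in the trachea, in a volume of 50 µL that matched 1000000 bacteria. MIA-602, which blocks the receptor for growth hormone-releasing hormone, was injected under the skin of every mouse, 5 µg daily for 3 weeks. All samples form 1 group, the sources used here give no ages, and mice without the drug or the challenge were not analysed here, so nothing below measures an effect of either.

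Hemoglobin carries oxygen in the red cell as a tetramer of alpha and beta chains, each holding a heme group. Mature red cells of mammals have no nucleus, and the globin mRNA found in blood was made earlier, in the erythroid precursors of marrow and spleen, and is carried over in reticulocytes and young red cells. A lung that is not cleared of blood before RNA extraction therefore yields globin transcripts together with those of its own cells. The sources used here do not say whether these lungs were perfused. In RNA from whole tissue, fewer cells of a type and less RNA per cell cannot be told apart.

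The libraries held 31579465 to 43845715 counts, and TMM factors, which correct for differences in composition, lay between 0.982 and 1.01. Lung identity was plain in all of them, with Sftpc, surfactant protein C of alveolar type 2 cells, at 14532, 20177 and 18402 CPM (counts scaled to a library of 1000000, with TMM) in mice 4, 5 and 6. Skeletal muscle transcripts were highest in mouse 4, where 8 of 8 listed genes had their highest level (33.5% of all genes tested did) and their summed level was 5637 CPM against 2069 in mouse 5 and 1777 in mouse 6. Cardiac muscle transcripts were lowest in mouse 5, summing to 148 CPM against 316 in mouse 4 and 325 in mouse 6. Their part in the results below was not tested.

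The members of each adult globin pair are close to identical, which limits what can be said of a gene alone. Between Hba-a1 and Hba-a2 the coding sequences of 426 bases (stop codon left out) differed at 1 base, C381T, counted from 1 at the start codon with the base of Hba-a1 first. Between Hbb-bs and Hbb-bt, the 2 beta globin genes of the haplotype that C57BL mice carry, the 441 coding bases also differed at 1 base, C417T, with the base of Hbb-bs first. The stretches around these differences are printed with the differing base in capitals, to show how little of a read would tell the copies apart. They come from the GENCODE M21 transcripts and span coding bases 346 to 405 of the alpha genes and 382 to 441 of the beta genes.
Hba-a1: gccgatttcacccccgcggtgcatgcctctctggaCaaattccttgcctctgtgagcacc
Hba-a2: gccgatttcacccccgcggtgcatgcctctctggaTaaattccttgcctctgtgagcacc
Hbb-bs: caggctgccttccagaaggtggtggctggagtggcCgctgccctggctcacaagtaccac
Hbb-bt: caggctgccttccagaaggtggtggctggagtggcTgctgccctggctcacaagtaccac

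Over whole transcripts, 67.5% of the 50-base windows of Hba-a1 and 86.9% of those of Hba-a2 were also present in the other copy. For the beta pair, the shares were 65.8% of Hbb-bs and 58.3% of Hbb-bt. No 50-base window was shared between Hba-a1 and Hbb-bs. The sources used here do not say how reads that match both copies were counted, and values of a copy are therefore uncertain. If such reads were split between the copies, the sum of a pair depends less on how this was done. If they were dropped, the sums are too low as well, and unequally for the alpha and beta pairs, whose shared shares differ.

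The sequences before the transcription starts are shown as background on these genes, and any link to the differences between lungs was not tested. The 250 bases upstream of each start, taken from RefSeq on GRCm38.p6, were found for 6 of the genes. They were searched on both strands for GATAA (the core bound by the erythroid factor GATA1), CACCC (bound by KLF1 and related factors), CCAAT and TATAA. The GENCODE M21 span of each of these 6 genes begins inside its window. By that annotation, part of each window therefore lies within the gene and not before it. Windows of Hba-a1 and Hba-a2 are the same over the 247 bases they share when shifted by 3. For that reason 1 alpha window is printed, with the Hbb-bs window. Beside them are Alas2, the erythroid enzyme gene, and Bpgm, the other gene outside the globins with a window, with motif matches in capitals. The windows are chr11:32296242-32296491 on the plus strand for Hba-a2, chr7:103827929-103828178 on the minus strand for Hbb-bs, chrX:150547167-150547416 on the plus strand for Alas2 and chr6:34476106-34476355 on the plus strand for Bpgm.
Hba-a2: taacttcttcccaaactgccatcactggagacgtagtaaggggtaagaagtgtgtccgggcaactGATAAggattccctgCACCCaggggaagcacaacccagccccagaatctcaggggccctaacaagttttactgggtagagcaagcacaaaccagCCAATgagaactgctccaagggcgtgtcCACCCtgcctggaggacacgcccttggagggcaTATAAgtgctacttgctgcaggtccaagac
Hbb-bs: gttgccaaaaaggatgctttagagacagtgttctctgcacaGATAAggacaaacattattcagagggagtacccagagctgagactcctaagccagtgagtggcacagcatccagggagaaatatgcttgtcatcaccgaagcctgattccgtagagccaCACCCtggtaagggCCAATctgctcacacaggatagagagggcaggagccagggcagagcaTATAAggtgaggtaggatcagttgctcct
Alas2: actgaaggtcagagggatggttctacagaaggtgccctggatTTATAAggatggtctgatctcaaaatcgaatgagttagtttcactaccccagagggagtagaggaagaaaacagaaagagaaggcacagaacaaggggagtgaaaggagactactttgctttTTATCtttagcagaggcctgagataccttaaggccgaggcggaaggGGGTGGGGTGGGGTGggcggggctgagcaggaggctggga
Bpgm: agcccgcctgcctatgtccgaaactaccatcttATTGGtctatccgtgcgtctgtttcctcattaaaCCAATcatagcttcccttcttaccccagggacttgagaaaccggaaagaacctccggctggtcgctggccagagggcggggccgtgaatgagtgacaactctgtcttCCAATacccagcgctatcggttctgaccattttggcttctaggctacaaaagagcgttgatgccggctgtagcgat

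Every one of the 4 adult globin windows held each of the 4 motifs, with the nearest sense TATAA beginning 27 to 30 bases before the RefSeq start. Alas2 had 1 GATAA and 3 CACCC matches, all on the antisense strand and none overlapping another, and a TATAA match that reads on both strands through overlapping letters. Bpgm had 3 CCAAT matches and no match to the other motifs. Over all 32851 windows of this length, 22.6% held GATAA, 52.0% CACCC, 33.9% CCAAT and 22.8% TATAA, and 3.45% held the first 3 together. A match of these letters is a description and shows no binding.

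All 4 adult globin genes were highest in the lung of mouse 5. Hbb-bs (ENSMUSG00000052305, chromosome 7, 103826534 to 103828096, minus strand) stood at 723, 1624 and 747 CPM in mice 4, 5 and 6. Mouse 5 lay 2.24-fold above mouse 4 and 2.174-fold above mouse 6, and the last 2 were close, at 1.03-fold. Its neighbor Hbb-bt (ENSMUSG00000073940, chromosome 7, 103812524 to 103813996, minus strand) had the same shape at a lower level, with 127, 281 and 138 CPM.

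The alpha pair, on chromosome 11, also peaked in mouse 5 but placed mouse 6 between the others. Hba-a1 (ENSMUSG00000069919, 32283511 to 32284465, plus strand) stood at 364, 742 and 507 CPM in mice 4, 5 and 6. Hba-a2 (ENSMUSG00000069917, 32296489 to 32297298, plus strand) stood at 234, 512 and 397 CPM. Mouse 6 exceeded mouse 4 by 1.39-fold for Hba-a1 and 1.70-fold for Hba-a2, against 1.03-fold and 1.09-fold for the beta genes.

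**Figure D1:**
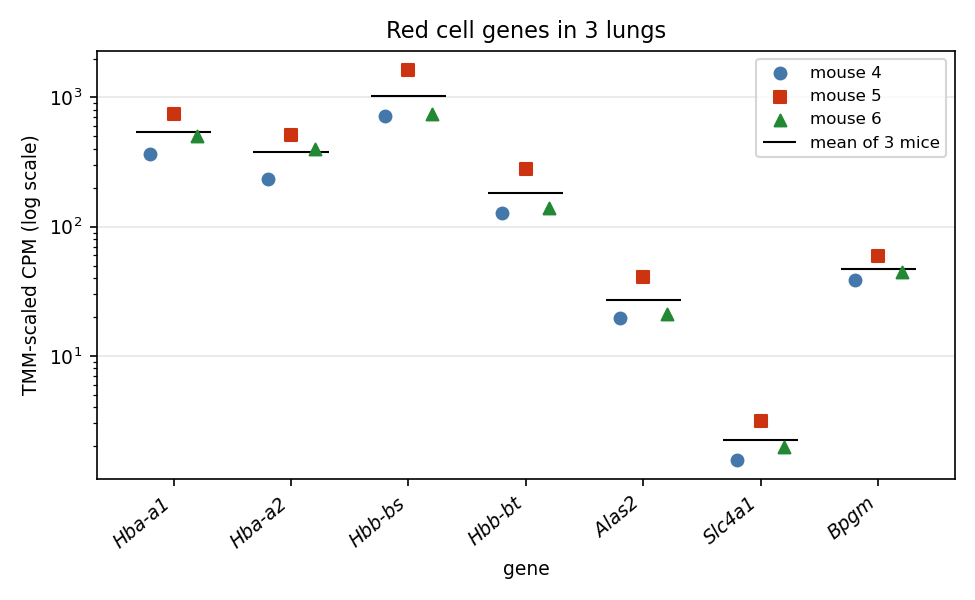
TMM-scaled CPM (log axis) of the 7 measured genes in each lung, with 1 point per mouse and a line at the mean of 3. The square of mouse 5 is the highest point for every gene, from 1624 CPM for Hbb-bs to 3.15 CPM for Slc4a1.

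Together the 4 adult globins made up 0.142%, 0.320% and 0.1797% of the counts of mice 4, 5 and 6. Their summed level was 1449, 3159 and 1789 CPM, a mean of 2132 ± 905 (SD, n = 3). This spread rested on mouse 5, since mouse 6 exceeded mouse 4 by 1.24-fold only. Leaving the globin counts out of the library totals moved the mean to 2137 CPM, so their own abundance barely touched the scaling of other genes.

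Among the other genes, Alas2, the first enzyme of heme synthesis in erythroid cells (ENSMUSG00000025270, chromosome X, 150547375 to 150570638, plus strand), followed the beta globins. It stood at 19.8, 40.5 and 21.2 CPM in mice 4, 5 and 6, 2.05-fold higher in mouse 5 than in mouse 4. The Alas2 gene lies wholly within the annotated span of Apex2 on the opposite strand, which had 406, 263 and 305 counts, fewest in mouse 5. Whether strand was used in the counting is not stated, and without it the reads of this pair cannot be told apart where their exons overlap.

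Slc4a1, the band 3 anion exchanger of the red cell membrane (ENSMUSG00000006574, chromosome 11, 102348824 to 102366203, minus strand), was scarce, with 68, 114 and 63 counts in mice 4, 5 and 6. These counts equal 1.58, 3.15 and 1.99 CPM, with mouse 5 again the highest. Bpgm makes 2,3-bisphosphoglycerate, the metabolite that lowers the oxygen affinity of hemoglobin (ENSMUSG00000038871, chromosome 6, 34476207 to 34505613, plus strand). It stood at 38.6, 59.4 and 44.2 CPM, and its fold of 1.54 between mice 5 and 4 was the smallest of the 7 genes.

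Past a 2-fold difference, which serves here as a mark of size and not as a test, mouse 5 exceeded mouse 4 at 5 of 7 genes, with Slc4a1 at 1.997-fold just short of it. Of 17636 genes kept by the filter, 1.85% were more than 2-fold higher in mouse 5 than in mouse 4. Against mouse 6, mouse 5 was more than 2-fold higher at the 2 beta globins only, where the share over all genes was 0.885%. Mouse 6 was more than 2-fold above mouse 4 at none of the 7 genes, with 1.24% over all genes. None of the 7 was more than 2-fold lower in mouse 5 than in mouse 4 (2.9% over all genes), in mouse 5 than in mouse 6 (1.3%) or in mouse 6 than in mouse 4 (2.23%). Because the genes were picked for this spread, nothing is read from these counts.

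Levels of different genes can be set side by side only per length, here per kilobase of the longest coding transcript. On this scale Hbb-bs led at 1642 ± 817 CPM per kilobase (SD, n = 3), the 28th highest level of all genes. Hba-a1 followed at 769 ± 274 and Hba-a2 at 688 ± 252. Within each mouse Hba-a1 was the higher, at 520.5, 1062 and 725 against 422, 924 and 717 in mice 4, 5 and 6. How reads matching both copies were counted bears on these globin levels. Hbb-bt, at 259 ± 121, came next.

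The remaining genes were far below the globins per kilobase. Bpgm stood at 21.3 ± 4.84 CPM per kilobase and Alas2 at 13.3 ± 5.68. Their ranges over the mice overlapped, but within each mouse Bpgm was the higher. It had 17.4, 26.7 and 19.9 against 9.70, 19.9 and 10.4 for Alas2 in mice 4, 5 and 6. Slc4a1 had 0.493 ± 0.1797 CPM per kilobase.

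Within a lung, the ratio of alpha to beta globin counts was not constant. It was 0.702 in mouse 4 (95% exact binomial interval 0.691 to 0.714), 0.659 in mouse 5 (0.651 to 0.667) and 1.02 in mouse 6 (1.005 to 1.04). Mouse 6, which had almost as few beta globin transcripts as mouse 4 (885 against 851 CPM), had clearly more alpha globin transcripts (904 against 598 CPM). Per kilobase, the ratios were 0.707, 0.666 and 1.04, so transcript length did not change their order. The intervals cover counting error only, since the reads carry no molecular identifiers in these values, and with 1 library per mouse no test between mice was made. Nor do they cover reads that may have been dropped for matching both copies of a pair. The ratio of 1.02 in mouse 6 is therefore one of counts and does not show equal amounts of alpha and beta RNA.

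**Figure D2:**
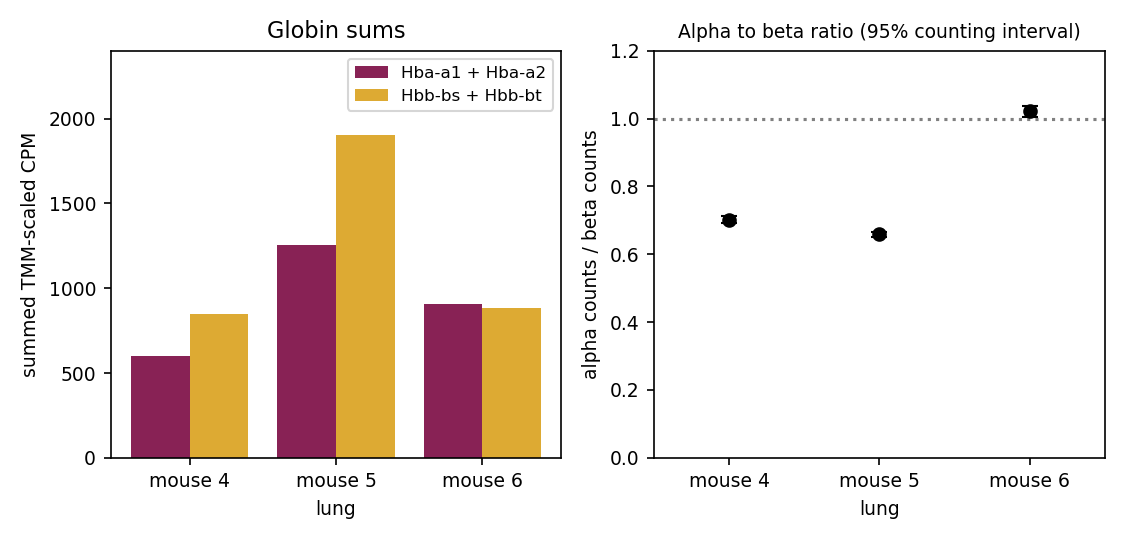
Left, bars of the summed alpha (Hba-a1 and Hba-a2) and beta (Hbb-bs and Hbb-bt) globin levels in TMM-scaled CPM for each lung; right, the ratio of alpha to beta counts with its 95% counting interval and a dotted line at equal counts. Both sums are highest in mouse 5, and the ratio of 1.02 in mouse 6 lies above the 0.702 and 0.659 of the other lungs.

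The share of each copy within its pair varied less than the pair's level. Hbb-bs made up 85.0%, 85.3% and 84.4% of beta globin counts in mice 4, 5 and 6. Hba-a1 made up 60.9% (60.3% to 61.5%), 59.2% (58.7% to 59.6%) and 56.1% (55.5% to 56.6%) of alpha globin counts, lowest in mouse 6. Since most of these sequences are shared, the shares also reflect how the counting split reads.

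Per globin count, Alas2 and Slc4a1 were nearly level across lungs while Bpgm was not. Alas2 had 13.6 counts per 1000 adult globin counts in mouse 4, 12.8 in mouse 5 and 11.8 in mouse 6. Slc4a1 had 1.09, 0.998 and 1.11 counts per 1000 globin counts, with overlapping exact Poisson intervals. Bpgm had 26.6 (25.4 to 27.9) in mouse 4, 18.8 (18.01 to 19.6) in mouse 5 and 24.7 (23.4 to 26.03) in mouse 6, lowest where globins were highest.

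Embryonic and minor hemoglobin genes were at or near the limit of detection. Hba-x, Hbb-y and Hbb-bh1, the globins of the embryo, had 0 counts in every library, as did Hbb-bh0 and Hbb-bh2, so that levels up to 0.0684 CPM in mouse 4, 0.0841 in mouse 5 and 0.0950 in mouse 6 (3 counts per library) could have gone unseen. The theta globin genes Hbq1a and Hbq1b, which lie beside the alpha genes, had 1, 3 and 3 counts and 8, 10 and 1 counts.

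Other genes of the red cell, taken as lists, showed no common peak in mouse 5. Over 4 lists (heme synthesis, membrane and skeleton, reticulocyte and red cell enzymes, and erythroid regulators), 49 of 59 genes passed the filter, and 10 of the 49 had the order mouse 5, 6, 4 of the summed globins. Over all 17636 genes, 20.2% had that order, so the share among these red cell genes was near the background. Their median log2 ratio of mouse 5 to mouse 4 was 0.03, against −0.0030 over all genes and 1.03 over the 7 genes described above. In edgeR's quasi-likelihood fit, none of the 49 exceeded the trend of spread between mice after Benjamini-Hochberg adjustment, and over all genes 0.0% did. At an unadjusted p under 0.05 there were 4 of 49, with 4.92% over all genes. With 3 libraries this test has little power, so an adjusted count of 0 does not show that a gene was level.

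Red cell membrane genes differed in the lung where they were highest. Epb42, a protein that links band 3 to the skeleton, had 7, 26 and 6 counts in mice 4, 5 and 6, highest in mouse 5, and did not pass the filter. Sptb and Ank1, which are more widely expressed, had another order. Sptb, beta spectrin, stood at 17.3, 7.77 and 7.41 CPM, and Ank1, ankyrin 1, at 16.6, 6.39 and 7.63 CPM, both highest in mouse 4. Mouse 5 lay below mouse 4 at 0.449-fold for Sptb and 0.384-fold for Ank1. Skeletal muscle also makes forms of both proteins, and Acta1, skeletal muscle actin, stood at 1936, 687 and 594 CPM, a part that was not tested. Tmod1, which caps actin filaments in red cells and in muscle, had 61.0, 59.02 and 42.7 CPM. Of the 11 membrane genes that passed the filter, 5 were highest in mouse 5 (36.4% of all genes were), 4 in mouse 4 (33.5% of all genes) and 2 in mouse 6, and the most abundant, Epb41, was among the first, at 80.8, 104.7 and 89.1 CPM.

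**Figure D3:**
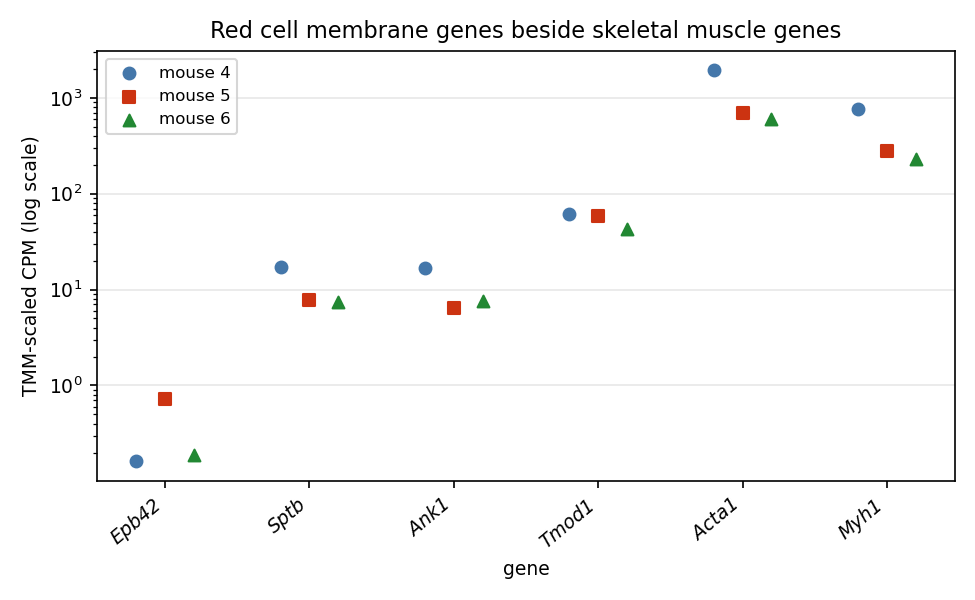
TMM-scaled CPM (log axis) of 4 red cell membrane genes and of 2 skeletal muscle genes, Acta1 and Myh1, with 1 point per mouse. Epb42 is highest in mouse 5, whereas Sptb and Ank1 are highest in mouse 4, as are Acta1 and Myh1.

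Genes of heme synthesis other than Alas2 had no order in common. Alas1, the form of the first enzyme used by most tissues, stood at 354, 376 and 392 CPM in mice 4, 5 and 6, without the peak that Alas2 had in mouse 5. Ppox had 54.02, 51.02 and 57.9 CPM, Alad 36.1, 45.02 and 43.9, and Fech, the enzyme that inserts iron, 41.6, 38.2 and 33.2. Slc25a37, the mitochondrial iron importer, went the other way from the globins at 277, 166 and 201 CPM. Slc25a38 and Urod lay between 31 and 35 CPM in every mouse. None of the 11 genes of this list was past 2-fold in any pair of mice, which is near the background, since over all genes 0.885% to 2.9% were past it in each direction of a pair.

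Among genes of reticulocyte and red cell enzymes, 2 of 16 had the order of the globins (20.2% over all genes). Gpx1, a glutathione peroxidase, stood at 476, 452 and 475 CPM, and peroxiredoxin Prdx2 at 141, 137 and 159. Catalase, Cat, had 159, 232 and 181 CPM, in the order of the globins. Ube2l6 had 155, 131 and 175 CPM, and the mitophagy receptor Bnip3l 137, 163 and 132. Car1, an anhydrase abundant in red cells, had 0, 0 and 2 counts. None of the 16 genes that passed the filter was past 2-fold in any pair of mice, again near the background.

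Regulators restricted to the erythroid lineage were scarce. Klf1, the transcription factor that drives adult beta globin, had 11, 9 and 11 counts, below the filter. Gata1, the master erythroid and megakaryocyte factor, had 15, 28 and 16 counts, or 0.348, 0.774 and 0.505 CPM. Epor, the erythropoietin receptor, stood at 1.30, 3.21 and 2.55 CPM, and with Gata1 was past 2-fold between mice 5 and 4, 2 of 11 genes against 1.85% over all genes. Factors shared with other cells were abundant and even, with Ldb1 at 172, 183 and 187 CPM, Zbtb7a at 152, 137 and 144 and Lmo2 at 73.3, 74.7 and 73.2. Tfrc, the transferrin receptor, had 35.8, 49.6 and 50.01 CPM, and Zfpm1 had 26.8, 21.6 and 23.1.

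Genes of platelets, vessels and lung epithelium were mostly highest in mouse 5. Of 13 platelet genes, 13 were highest in mouse 5, where 36.4% of all genes were, and 7 were more than 2-fold higher there than in mouse 4 (1.85% over all genes). Itga2b, the platelet integrin chain, stood at 9.22, 18.9 and 11.9 CPM in mice 4, 5 and 6, and Ppbp, the platelet basic protein, at 6.13, 16.7 and 7.44. Others past 2-fold included Gp1ba, Gp5 and Gp9 of the von Willebrand factor receptor and the platelet tubulin Tubb1, with folds of 2.31 to 3.95 between mice 5 and 4. Not all differed alike, as Clec1b had 9.29, 9.87 and 9.18 CPM and Pf4 8.03, 9.71 and 9.24. The most abundant, Itgb3, also made by other cells, had 33.2, 41.8 and 39.4 CPM. The list's median log2 ratio of mouse 5 to mouse 4 was 1.04, next to 1.03 for the globins and red cell genes.

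All 8 endothelial genes were highest in mouse 5 as well (36.4% of all genes were). Their median log2 ratio of mouse 5 to mouse 4 was 0.62. Pecam1, a junction protein of all vessels, stood at 404, 545 and 426 CPM, Cdh5 at 323, 415 and 299, and Cldn5 at 186, 303 and 207. Car4, a capillary anhydrase, had 63.5, 130.04 and 89.8 CPM, 2.05-fold higher in mouse 5 than in mouse 4. Lung epithelial genes went the same way, with 7 of 8 highest in mouse 5 (36.4% over all genes). In the order of the globins were 5 of 8 (20.2% over all genes), and the median log2 ratio of mouse 5 to mouse 4 was 0.36. Scgb1a1, the secretoglobin of club cells, stood at 7643, 21691 and 19127 CPM, 2.84-fold higher in mouse 5 than in mouse 4, and Sftpb, surfactant protein B, at 2379, 3620 and 2952, 1.52-fold higher. High values in mouse 5 were therefore not limited to genes of blood and vessels. Of 7 genes of neutrophils, which also travel in blood, 5 were highest in mouse 4, where 33.5% of all genes were. None had the order of the globins (20.2% over all genes). Their median log2 ratio of mouse 5 to mouse 4 was −0.17. Against mouse 6, however, mouse 5 was the higher, with a median log2 ratio of 0.58. The same median was 0.67 for the globins and red cell genes and 0.0009 over all genes. S100a8 stood at 70.5, 67.5 and 42.6 CPM, whereas S100a9 at 61.6, 69.3 and 42.1 and Retnlg at 8.75, 9.71 and 6.496 were highest in mouse 5. Whether blood, vessel content or the makeup of the tissue piece lay behind the globin values was not tested.

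**Figure D4:**
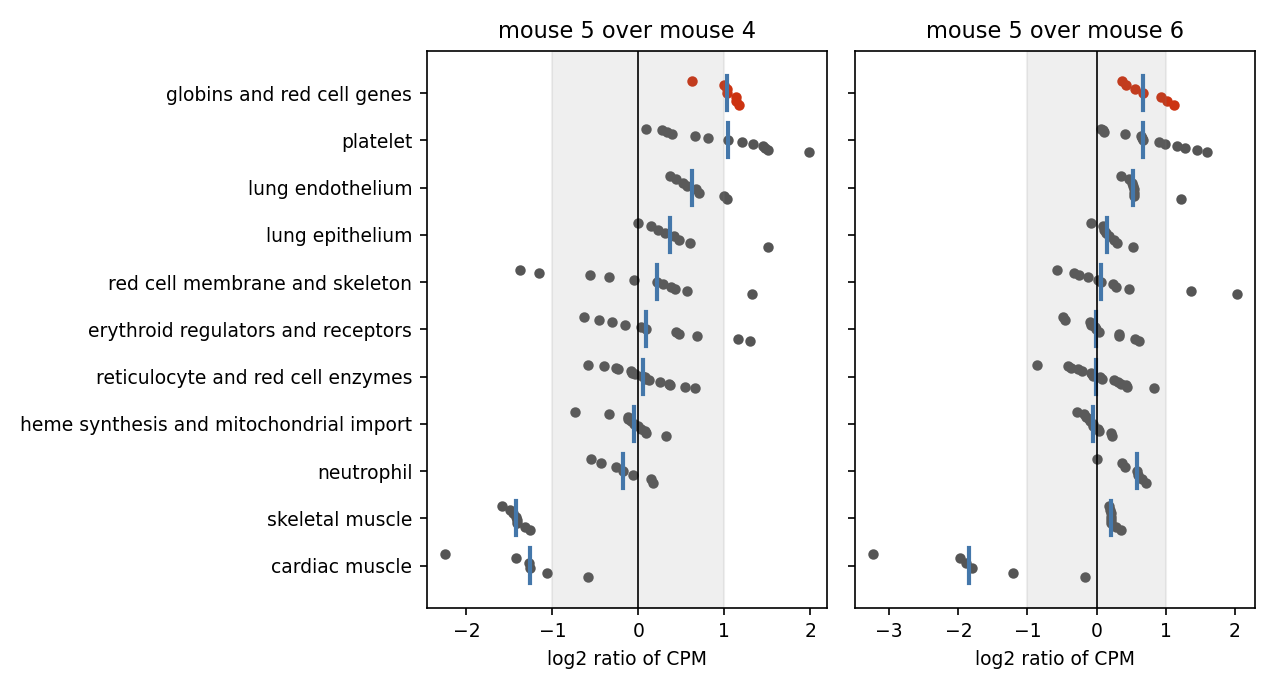
Log2 ratio of CPM of mouse 5 to mouse 4 (left) and to mouse 6 (right) for each gene that passed the filter, with 1 dot per gene, a blue line at the list median and grey shading within 2-fold. The globins and red cell genes, the platelet genes and the endothelial genes lie to the right of 0 in both panels, as does the median of the lung epithelial genes, the other red cell lists straddle 0, and skeletal muscle genes lie to the left against mouse 4 (median −1.42).

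The genes whose pattern over the 3 lungs was most like the mean of the 7 genes were found by the root mean square difference of log2(CPM + 0.5) after centering each gene. The mean profile was −0.42, 0.56 and −0.14 in mice 4, 5 and 6. With only 3 lungs many genes come close, and the 10 nearest lay within 0.0034 to 0.031 of it. They were Fam13c, Gnmt, Kcnrg, Galnt13, Itgbl1, Spata18, Rbfox3, Tek, Olfml2a and Itga2b. Tek, the angiopoietin receptor of endothelium, stood at 70.9, 134.8 and 83.2 CPM, and Itga2b is the platelet gene given above. The 7 genes themselves lay farther away, from 0.077 for Slc4a1, with 71 other genes nearer, to 0.20 for Hba-a2, with 759.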

How the data were processed

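The authors deposited raw counts per Ensembl gene, 1 column per mouse, with no normalization (whole numbers, per the file's values). STAR 2.5.2a, Trim Galore 0.6.2, bcl2fastq 2.17 and build mm10 appear in the submitters' processing notes. Which tool and annotation gave the counts, and whether strand was used, is not given in the sources used here. Symbols, positions and transcript lengths came from GENCODE M21 of the same build, which matched 53237 of 53342 identifiers (99.8%). Library totals were 43845715, 35674761 and 31579465 counts in mice 4, 5 and 6. The mice are separate animals by the series' design text.

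CPM were scaled with TMM factors from edgeR 4.0.16 (R 4.3.3). filterByExpr kept 17636 genes. For each gene, spread between mice was tested with edgeR's older robust quasi-likelihood fit and an intercept alone. Residual quasi-dispersion was set against its trend in a one-sided F test with the largest prior degrees of freedom (3.88) for all genes, and with Benjamini-Hochberg adjustment at 0.05. The largest value was used because, with per-gene values, genes shifted in 1 simulated library were not recovered. With it they were mostly recovered when every gene had the same low dispersion. With simulated dispersions scattered around the trend of these libraries none was recovered at any fold tried, so a call count of 0 says little about whether genes differed. A 2-fold ratio between 2 libraries is a size and not a test. Intervals are 95% exact binomial or Poisson, and cover counting error only. DESeq2 1.42.0 gave alternative scaling and dispersions. Python 3.11.15 with scipy 1.17.1 was used for levels and intervals.

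Members and the 13 other gene lists were chosen with earlier results of these data known. Named genes are the 7 matched members, the most abundant genes of the red cell, platelet and endothelial lists (up to 6) with those past 2-fold between mice 5 and 4, and the 10 of nearest pattern. Some genes of these lists are counted but not reported by name here. Others named were chosen after their values were seen.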

Additional observations from a re-analysis of the deposited data

How the results depend on the processing

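Of 105 recomputed values over 20 results, 89 stayed within the spread between mice, the counting error or 1.5 times the main count. This tally says little, because leaving 1 mouse out of a mean of 3 cannot move it beyond the spread between mice. A fold between 2 mice without the third mouse rests on the same 2 libraries and differs only in scaling. Reversal was looked for only in the globin folds and the alpha to beta ratio per kilobase, and none was found there. With library totals in place of TMM, summed globins were 2.25-fold higher in mouse 5 than in mouse 4 (2.18 with TMM) and 1.26-fold higher in mouse 6 than in mouse 4 (1.24 with TMM). Genes past 2-fold numbered 838 for mouse 5 against mouse 4, 385 for mouse 5 against mouse 6 and 612 for mouse 6 against mouse 4. Without the filter they numbered 8510, 7937 and 8524, since genes with few counts enter, and with 0.5 CPM added to each value 448, 117 and 288. The edgeR test of spread called 0 of 17636 genes (867 at an unadjusted p under 0.05) and DESeq2 dispersions also 0 (207 unadjusted). With per-gene prior degrees of freedom, an alternative chosen after seeing the data, edgeR also called 0 (867 unadjusted). Without the filter edgeR called 629 genes. Leaving out each mouse gave 0 to 18 calls, the 18 without mouse 4, and the cause was not tested. Per kilobase, Alas2, Slc4a1 and Bpgm had 3.98, 0.149 and 6.69 per 1000 globin counts (12.8, 1.07 and 23.4 without that division), since their transcripts are longer than those of globins. Red cell genes ordered as the globins numbered 10 of 49 over 3 mice and 24 to 27 when a mouse was left out, since 2 mice allow fewer orders. No paired analysis was possible because all samples form 1 group. Scarce genes such as Slc4a1 and Epb42 are limited by their counts.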

Other observations

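Of 4 globins of other cells, 1 had the order of the red cell globins (20.2% over all genes). Mb, the myoglobin of striated muscle, stood at 322, 119 and 120 CPM in mice 4, 5 and 6, highest where skeletal muscle genes were highest. Cygb, the cytoglobin of fibroblast-like cells, had 45.2, 55.5 and 60.9 CPM, and Adgb, the androglobin of ciliated cells, 21.01, 19.7 and 20.5. Ngb, neuroglobin, was scarce at 0.975, 2.27 and 2.02 CPM. It had the order of the red cell globins and was 2.33-fold higher in mouse 5 than in mouse 4.

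Genes that clear hemoglobin and heme had mixed orders, and 1 of 8 had the order of the globins, near the 20.2% over all genes. Hp, haptoglobin, which binds free hemoglobin, stood at 847, 1166 and 1043 CPM in mice 4, 5 and 6. Hmox1, the heme oxygenase that breaks heme down, was lowest where globins were highest, at 260, 149 and 177 CPM. Cd163, the macrophage receptor for the complex of haptoglobin and hemoglobin, had 3.67, 2.38 and 2.52 CPM, and Hpx, hemopexin, 2.41, 3.01 and 3.59. Blvra, biliverdin reductase, was even at 29.02, 29.3 and 31.7 CPM.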
